A study of Arabidopsis thaliana with 12 samples.

Results

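The genes described here were lower in every library of the 35S:HSFA1b line than in every WT library, while their mean in WT plants was nearly the same with and without heat. They were chosen from the measured FPKM values (fragments mapped to a transcript, scaled to its length and to the size of the library) by 3 criteria. The mean of the 6 WT columns had to lie between 3 and 100 FPKM, each of the 6 columns of the 35S line had to be at most 0.67 times the lowest WT column, and the ratio of the WT mean under heat to that without had to lie between 0.67 and 1.5. Of 33557 loci in the table, 13424 met the first criterion, 9234 met the first and the third, and 2 met all 3. These are LYK4 (AT2G23770), a protein-coding gene, and AT3G29644, which RefSeq annotates as a long non-coding RNA.

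Leaves of Arabidopsis plants aged 5 weeks were measured by RNA-seq. Col-0 plants (WT) and plants of the line 35S:HSFA1b-RFP in Col-0, which express the heat shock factor HSFA1b fused to a red fluorescent protein from the viral 35S promoter, were kept at 23 °C (NS) or exposed to 37 °C for 30 min (HS). Each of the 4 groups had 3 libraries. Because the 35S promoter is active in most tissues, the transgene was not limited to the cells that express HSFA1b themselves, and a single line was used, so effects of its insertion site cannot be told apart from those of the transgene. The titles of the libraries give the genotype, since the genotype label reads wild type for all 12.

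Library submission was tied to genotype. All 6 WT libraries and 1 NS library of the 35S line carry one submission number in their descriptions, and the other 2 NS libraries and the 3 HS libraries of the 35S line carry another. Which column of the table holds which library is not stated. Genotype and submission therefore cannot be told apart in most columns. The part of the submission in the levels of the chosen genes was not tested.

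LYK4 is a receptor-like kinase of the plasma membrane with lysin motifs (LysM) outside the cell. LysM proteins bind chains of N-acetylglucosamine such as chitin, a component of fungal cell walls. In Arabidopsis, chitin perception rests on CERK1, whose kinase domain signals, together with LYK5 and LYK4, and RefSeq notes an overlap of LYK4 with LYK5 in chitin-triggered immunity. Long non-coding RNAs transcribed from the strand opposite another gene are called natural antisense transcripts. Some of them affect the gene on the other strand, and for most, AT3G29644 among them, no function is given in the annotation.

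In RefSeq's annotation of TAIR10.1, LYK4 lies on chromosome 2 from 10119973 to 10122479 on the minus strand and consists of 1 exon of 2507 bp. Its coding sequence runs from 10120242 to 10122080 and is 1839 bp long. The gene upstream of it on the same strand, AT2G23780, a RING/U-box protein gene, ends 17 bp before the start of LYK4, so the bases before LYK4 are almost at once the last bases of another gene. The whole gap between them, at chr2:10122480-10122496 and shown because it is all the intergenic sequence that LYK4 has on this side, reads as follows on the strand of the gene.
LYK4 gap: ccattttgcgtcggtga

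AT3G29644 lies on chromosome 3 from 11498879 to 11501424, also on the minus strand. It spans 2546 bp and has 5 annotated transcripts of 2 to 4 exons with between 386 and 1443 exonic nt. It overlaps the pseudogene AT3G29642 on the plus strand by 471 bp, and RefSeq names it as a natural antisense transcript of that locus. The 250 bases before its start, at chr3:11501425-11501674, hold 20.4% G and C. They are shown because they carry the only match to the motifs searched in either gene, in capitals.
AT3G29644 upstream: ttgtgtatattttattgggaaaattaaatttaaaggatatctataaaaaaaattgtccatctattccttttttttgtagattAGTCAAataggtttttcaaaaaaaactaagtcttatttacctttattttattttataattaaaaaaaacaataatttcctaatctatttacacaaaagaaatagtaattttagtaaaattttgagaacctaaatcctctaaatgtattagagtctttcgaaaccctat

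The motifs were searched on both strands of the window from 250 bases before to 50 bases after each start. The match in AT3G29644 is the W-box (TTGACC or TTGACT), the element that WRKY factors bind, read here from the other strand, and its first base lies at -168. Of 37897 such windows, 31.4% hold a W-box. Neither window holds the heat shock element of 3 units, in which GAA, TTC and GAA, or TTC, GAA and TTC, are spaced by 2 bases (0.472% of all windows), or the one of 2 units, GAANNTTC, which the first contains (11.4%). Neither holds a G-box, CACGTG (6.46%), or an evening element, AAAATATCT (2.49%). The window of LYK4 lies mostly within AT2G23780.

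LYK4 was expressed at a low level in WT leaves and at a lower one in the 35S line. In the order of the digits in their names, the 3 WT NS columns read 4.40, 3.54 and 3.37 FPKM, and in WT HS plants 3.35, 3.74 and 4.11 FPKM. In 35S:HSFA1b NS plants they read 1.46, 1.57 and 1.54 FPKM, and in 35S:HSFA1b HS plants 2.19, 1.63 and 1.96 FPKM. The WT groups overlapped over nearly their whole range, and the highest column of the 35S line was 0.656 times the lowest WT column, just under the ceiling of 0.67.

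The mean LYK4 level was 3.77 ± 0.554 FPKM (SD, n = 3) in WT NS, 3.73 ± 0.380 in WT HS, 1.93 ± 0.281 in 35S:HSFA1b HS and 1.52 ± 0.0563 in 35S:HSFA1b NS plants, in this order from high to low. The difference between the WT groups was smaller than their spread, with a ratio of HS to NS of 0.990. The level in the 35S line was 0.405 times that of WT without heat and 0.517 times with heat, and over both conditions the WT mean was 2.17-fold the mean of the 35S line. These ratios are the values by which the gene was chosen and were not tested. In bulk leaf RNA, fewer cells that express a gene and less RNA per cell cannot be told apart.

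AT3G29644 showed the wider gap of the pair. In WT NS plants its columns read 6.66, 6.34 and 6.28 FPKM, and in WT HS plants 6.13, 7.66 and 5.31 FPKM. In 35S:HSFA1b NS plants they read 1.49, 0.818 and 0.930 FPKM, and in 35S:HSFA1b HS plants 2.65, 1.49 and 2.68 FPKM. The WT HS columns spread to both sides of the WT NS columns, and the highest column of the 35S line was 0.505 times the lowest WT column.

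The mean AT3G29644 level was 6.43 ± 0.204 FPKM (SD, n = 3) in WT NS, 6.37 ± 1.19 in WT HS, 2.27 ± 0.681 in 35S:HSFA1b HS and 1.08 ± 0.358 in 35S:HSFA1b NS plants, the same order of groups as for LYK4. The WT groups did not differ beyond their spread, with a ratio of HS to NS of 0.991. Relative to WT the line stood at 0.168 times without heat and at 0.357 times with heat, and the WT mean was 3.82-fold the mean of the line. FPKM are scaled to length, so levels may be set beside each other between genes: in WT leaves the RNA of AT3G29644 was the more abundant, with a mean of 6.40 against 3.75 FPKM for LYK4, and in the 35S line the means were 1.68 and 1.73 FPKM.

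**Figure D1:**
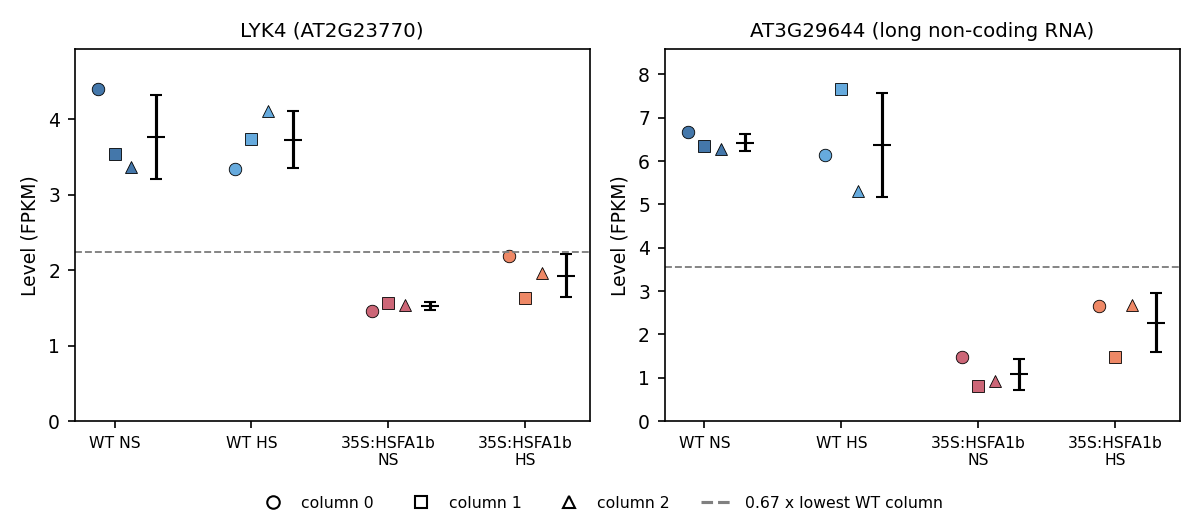
Level in FPKM of LYK4 (left) and AT3G29644 (right) in the 12 columns of the table, by group; each point is 1 column, the bars are the mean ± SD of 3 columns and the dashed line is 0.67 times the lowest WT column. Every 35S:HSFA1b column lies under the line, the nearest being 2.19 FPKM for LYK4 in HS plants.

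Within the submission that holds all WT libraries, the 1 NS library of the 35S line was between 0.388 and 0.416 times the WT NS mean for LYK4, depending on which column it is, and between 0.127 and 0.231 times for AT3G29644. These are bounds on a single library and allow no test, and that it lies under the ceiling was fixed by the criteria. No such value can be had for HS plants, since no HS library of the 35S line shares that submission.

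In the 13424 genes with a WT mean of 3 to 100 FPKM, all 6 columns of the 35S line lay below all 6 WT columns for 179, or 1.33%, and above them for 2.49%. The choice of the pair fixed this pattern for both, so nothing is read from it. With the same 3 criteria turned round, 16 genes were higher in every column of the line.

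The ceiling decides how many genes are described. Among the 9234 genes that met the other criteria, 0 lay under a ceiling of 0.5, 2 under 0.7, 4 under 0.75, 10 under 0.8 and 34 under 0.9. The nearest genes outside were AT2G47880, a glutaredoxin family gene, with a highest column of the 35S line at 0.746 times the lowest WT column, CYP706A1, a cytochrome P450 gene, at 0.749 times, and GSTU13, a glutathione transferase gene, at 0.771 times. LYK4 lies at 0.656 by the same measure. CYP706A1 had a ratio of means of 0.427, below the 0.461 of LYK4, and stayed outside because its WT columns ranged from 39.3 to 72.2 FPKM.

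**Figure D2:**
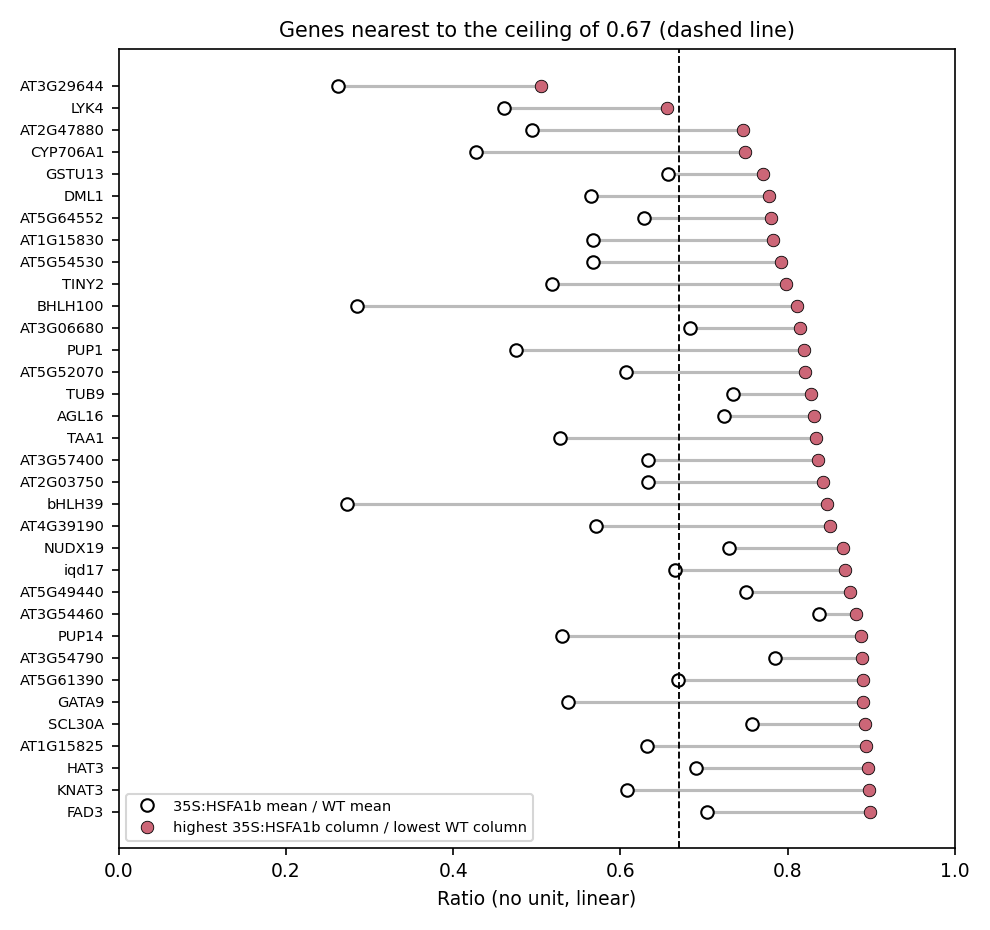
For each of the 34 genes nearest to the ceiling, the filled point is the highest 35S:HSFA1b column divided by the lowest WT column and the open point is the mean of the 6 35S:HSFA1b columns divided by the mean of the 6 WT columns (both ratios, linear axis). AT3G29644 and LYK4 are the only ones left of the dashed line at 0.67, and AT2G47880 follows at 0.746.

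Another pair of loci met the ceiling but not the heat window. AT5G15420, annotated as an uncharacterized protein, was listed at 0 in all 6 columns of the 35S line, with 4.33 ± 0.345 FPKM (n = 3) in WT NS and 7.88 ± 0.882 in WT HS plants, a heat ratio of 1.82. AT1G35183 was listed at 0 in 11 of 12 columns and at 31.7 FPKM in 1 WT NS column. It met the ceiling only because its lowest WT column was also 0, so it was not lower in the 35S line than in every WT column.

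The response to heat within the 35S line is the comparison that the criteria did not use, although they cap the level of every column in it. It was tested with limma, which fits a linear model to every gene with moderated variances, on log2(FPKM + 0.01) in all 12 columns. Submission is not balanced in this comparison. Of the NS libraries of the line, 1 carries the submission number of the WT libraries, and no HS library of the line does. The part of submission in this comparison was not tested. Testing was limited to 17720 genes whose mean over the 12 columns reached 1 FPKM, and a call needed an adjusted p (Benjamini-Hochberg) no higher than 0.05. By this rule 22.6% of genes were higher and 19.7% lower in 35S:HSFA1b HS than in 35S:HSFA1b NS plants. Of the pair, 1 was higher and 0 lower, and with members chosen on these columns and so few of them this count is not set against that share.

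By limma, AT3G29644 was called higher under heat in the 35S line. Its 3 HS columns of 2.65, 1.49 and 2.68 FPKM stood against NS columns of 1.49, 0.818 and 0.930 FPKM, with the lowest HS column and the highest NS column at almost the same value. The log2 difference was 1.07 (SE 0.27, limma adjusted p = 0.00894, 95% interval 0.47 to 1.66), about a doubling, where the median over all tested genes was 0.02. Without a model, an exact two-sided permutation test of the columns gave p = 0.2, where 3 columns against 3 cannot go below 0.1. The criteria set the highest column of the line against the lowest WT column, which favours genes with a small spread within groups. The SE, the interval and the adjusted p rest on that spread and may be too small. The WT heat ratio by which the gene was chosen did not require an unchanged level under heat in the 35S line. Even so, its highest HS column in the line stayed below its lowest WT column, as the criteria require.

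The higher level under heat was called under each of 20 alternative settings, with a log2 difference between 0.65 and 1.35 and a limma adjusted p between 0.00257 and 0.0381. The p-values measure the spread between libraries, which the labels number as replicates without saying whether plants were pooled.

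For LYK4 the change under heat in the 35S line did not pass the test. The HS columns of 2.19, 1.63 and 1.96 FPKM all lay above the NS columns of 1.46, 1.57 and 1.54 FPKM, a separation that 31.3% of tested genes had in this direction. The log2 difference was 0.33 (SE 0.16, limma adjusted p = 0.123, 95% interval -0.03 to 0.68) and the exact two-sided permutation p was 0.1, the smallest that this design allows. After quantile normalization of the columns the log2 difference was 0.55 with a limma adjusted p of 0.0109, so the call depends on how columns are scaled. The heat response of the line minus that of WT was 1.096 on the log2 scale for AT3G29644 and 0.34 for LYK4. The WT side of this difference was fixed by the criteria, so a test of it cannot decide whether the heat response differs between genotypes. It is given as a value only, and a difference in heat response was not shown.

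LYK4 has 4 loci of its symbol in the table, LYK2, LYK3, LYK4 and LYK5, of which all but LYK2 were tested. Besides LYK4, 0 of the 2 tested passed the test between genotypes, in NS or in HS plants, where 6.61% of tested genes were lower in the line in NS and 16.8% in HS plants. LYK3, a related receptor-like kinase, had WT NS columns of 4.79, 4.43 and 4.65 FPKM and 35S:HSFA1b NS columns of 4.14, 3.95 and 3.60 FPKM, a log2 difference of -0.25 (SE 0.17, limma adjusted p = 0.352). Its WT HS columns read 3.96, 3.09 and 2.55 FPKM, lower than in WT NS plants by a log2 change of -0.55 (limma adjusted p = 0.0193, where 22.5% of all tested genes were lower). This call was lost without the third NS column (0.0518), the second HS column (0.0509) or the third HS column (0.0688). In HS plants its columns in the line read 3.63, 3.02 and 4.15 FPKM and overlapped those of WT.

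LYK5, which like LYK4 takes part in chitin perception, varied widely between WT columns. They read 13.0, 4.10 and 4.64 FPKM in NS and 9.51, 20.5 and 49.2 FPKM in HS plants. In the 35S line all 6 columns lay between 8.24 and 11.2 FPKM, inside the WT range. The log2 difference between genotypes was 0.66 in NS (limma adjusted p = 0.437) and -1.12 in HS plants (limma adjusted p = 0.141). In WT plants LYK5 was higher under heat by 1.76 on the log2 scale (limma adjusted p = 0.0194; 26.3% of tested genes were higher). The highest NS column lay above the lowest HS column, and the call was lost without any 1 of 3 WT columns, with an adjusted p of 0.0762 without the second NS column, 0.0698 without the third NS column and 0.0614 without the third HS column.

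Further LysM genes, CERK1 and the membrane-anchored LYM1, LYM2 and LYM3, which lack a kinase domain, were looked at after the pair was known. None of the 4 was called between genotypes in NS or in HS plants. Of all tested genes, 6.61% were lower and 8.19% higher in the line in NS plants, and 16.8% and 12.1% in HS plants. CERK1 had a mean of 14.4 ± 4.73 FPKM (n = 3) in WT NS and 16.1 ± 0.616 in 35S:HSFA1b NS plants, with the NS columns of the line inside the WT NS range. LYM1 and LYM3 were higher under heat in the 35S line, where 22.6% of all tested genes were, by 0.46 (limma adjusted p = 0.0132) and 0.45 (limma adjusted p = 0.0243) on the log2 scale. The call of LYM1 was lost without the second HS column of the line (limma adjusted p = 0.0575), and that of LYM3 without the second NS column (0.0873) or without any 1 of its 3 HS columns (0.0516, 0.0687 and 0.0584). For LYK4 the same contrast gave 0.33, as above.

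**Figure D3:**
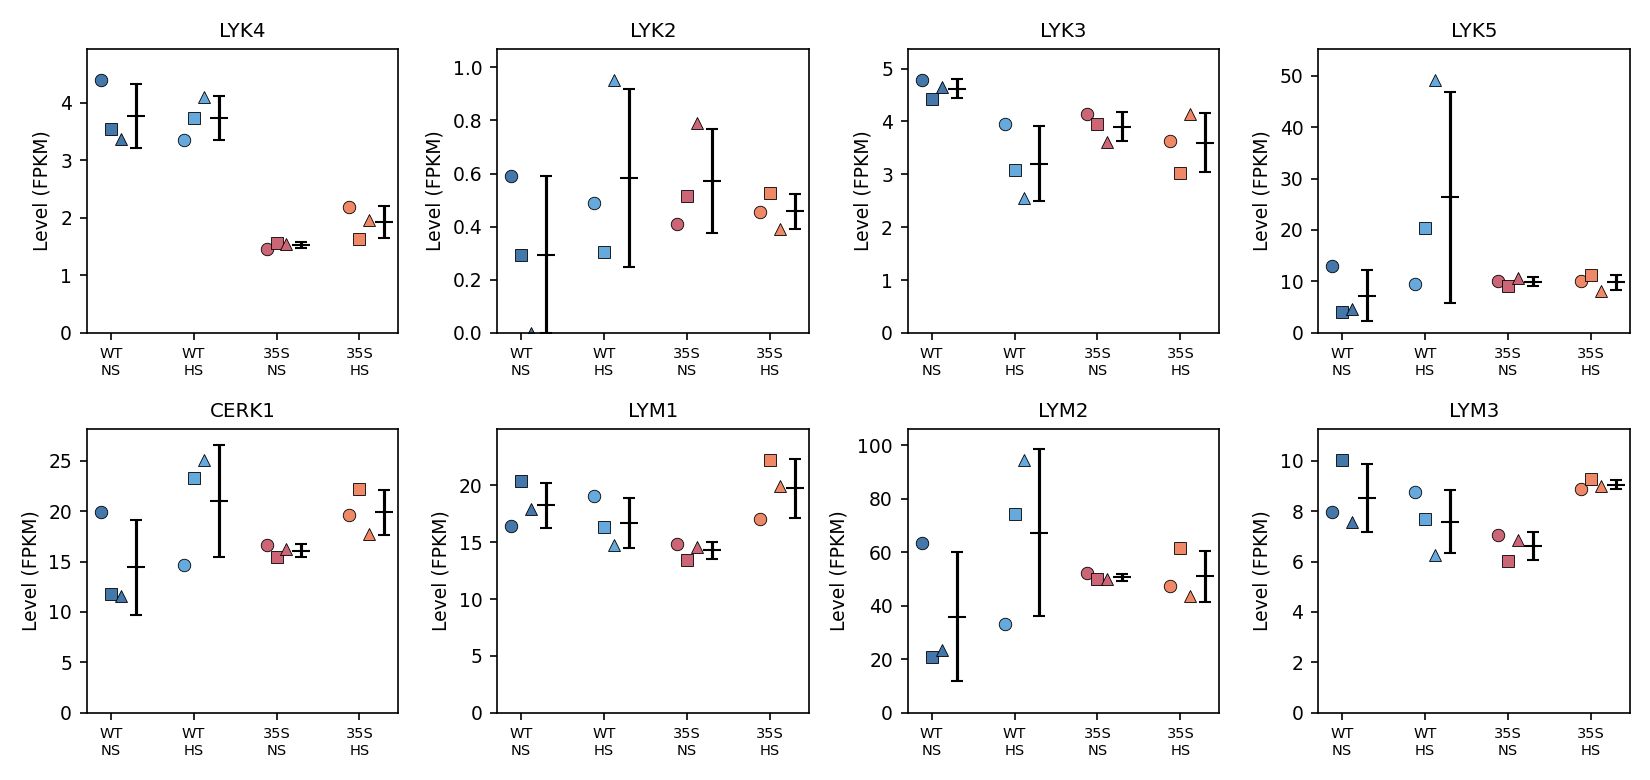
Level in FPKM of LYK4 and 7 other LysM genes in the 12 columns, by group; each point is 1 column (circle, square and triangle for the digits 0, 1 and 2 in the column names), the bars are the mean ± SD of 3 columns and each panel has its own linear axis from 0. In the panel of LYK4 alone all columns of the 35S line lie under all WT columns, as the choice of the gene requires, and LYK5 ranges from 4.10 to 49.2 FPKM in WT plants.

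No tested gene around the pair was called lower in 35S:HSFA1b NS plants, where 6.61% of all tested genes were. With so few neighbours tested, nothing is read from this count. Within 50 kb of LYK4 the table lists 21 loci, of which 6 are at 0 in all columns and 11 were tested. Of these, 0 were lower and 1 was higher in 35S:HSFA1b NS than in WT NS plants, where 8.19% of all tested genes were higher. The higher one is AT2G23780, whose end lies next to the start of LYK4. It read 35.6, 32.7 and 34.1 FPKM in WT NS and 39.6, 44.8 and 43.9 FPKM in 35S:HSFA1b NS plants, a log2 difference of 0.32 (limma adjusted p = 0.0128) that was no longer called without the second WT NS column (0.0605) or the second NS column of the line (0.0609). It was also higher under heat, by 1.03 in WT and by 0.70 in 35S:HSFA1b plants (log2, limma adjusted p = 1.08e-06 and 3.13e-05). In WT plants the mean of AT2G23780 went from 34.1 FPKM in NS to 69.6 FPKM in HS plants. The direction of LYK4 between genotypes and its WT heat ratio near 1 were fixed by the criteria, so nothing is read from setting LYK4 beside this neighbour.

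In HS plants 2 of the 11 were lower in the 35S line, a share near the 16.8% of all tested genes. They were the homeobox gene BLH4 (log2 -0.95, limma adjusted p = 0.000364) and the tetraspanin gene TET8 (log2 -2.43, limma adjusted p = 0.0077), whose difference was -1.68 without the third WT HS column and -3.08 without the first. In the same contrast 1 was higher, AT2G23820 (log2 0.21, limma adjusted p = 0.047), a call lost without any 1 of 11 of the 12 columns (0.052 to 0.136). Within 50 kb of AT3G29644 the table lists 22 loci, of which 13 are at 0 in all columns. Over all tested genes the share lower in the line was 6.61% in NS and 16.8% in HS plants, and of the 3 tested here 0 were lower in either. In HS plants 2 of these were higher, where 12.1% of all tested genes were: the acyltransferase gene PMAT2 (log2 0.95, limma adjusted p = 0.000553) and AT3G29680 (log2 0.99, limma adjusted p = 0.0156, but 0.061 without the first HS column of the line). The members lie on different chromosomes, so 0 of 2 lie near each other.

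**Figure D4:**
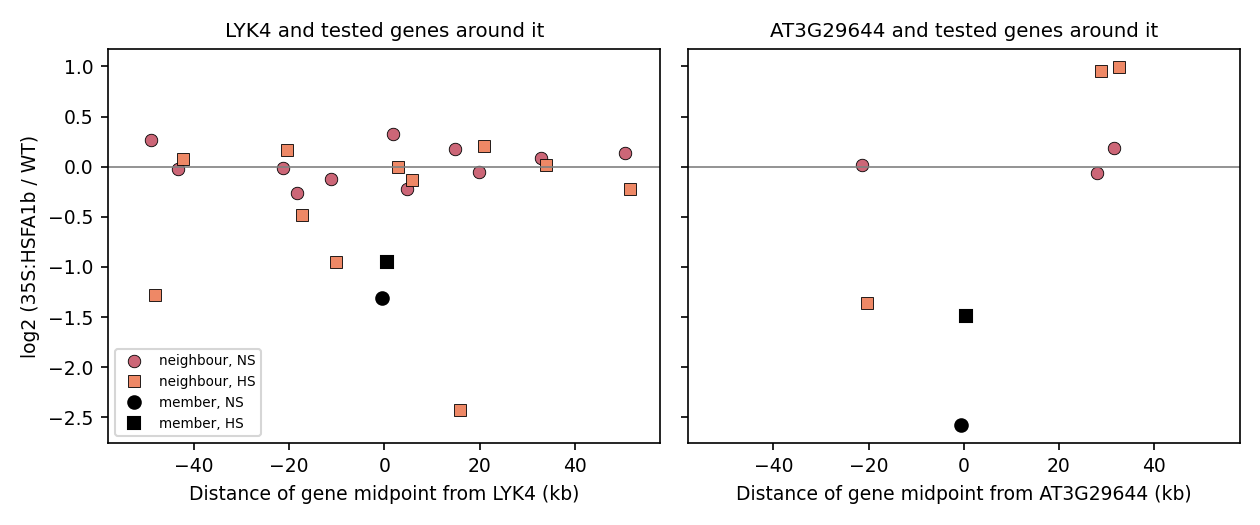
log2 ratio of 35S:HSFA1b to WT for LYK4 (left) and AT3G29644 (right), in black, and for the tested genes within 50 kb of each, in colour, against the distance between gene midpoints in kb; circles are NS and squares HS plants, moved apart sideways by 1 kb to be seen. For the members the value is the log2 of the ratio of group means, and for the neighbours it is the limma log2 difference. The members lie at -1.31 and -2.58 in NS plants, below every neighbour in NS plants. Their choice required a low ratio, so nothing is read from this.

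The overlap of AT3G29644 with the pseudogene AT3G29642 limits how its reads can be assigned. Whether the counting used strand is not given in the sources used here, so in the 471 bp that they share, reads of one cannot be told apart from reads of the other. The pseudogene itself was at 0.154 FPKM in WT NS, 0.0723 in WT HS, 0.0274 in 35S:HSFA1b NS and 0.0227 in 35S:HSFA1b HS plants (means of 3 columns), far below AT3G29644 in each group. A search of the genome with the spliced sequences found 2 partial copies of AT3G29644, of 296 bp at 91.9% identity at chr4:2584549-2584843, where no gene is annotated, and of 155 bp at 94.2% identity at chr1:12292253-12292407 in AT1G33855, a gene listed at 0 in all 12 columns. Reads from these stretches could be split between loci. For LYK4 no copy of at least 100 bp at 90% identity was found.

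The longest spliced transcript holds 39.8% G and C for LYK4 and 37.8% for AT3G29644, where genes with a WT mean of 3 to 100 FPKM have a median of 41.4%. Their lengths of 2507 and 1443 nt lie on either side of the median of 1786 nt.

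ChIP-seq data were not analysed here. In the list of features nearest to HSFA1b binding sites that accompanies the study, neither LYK4 nor AT3G29644 appears. Of the 17720 tested genes, 5.63% appear in it. The paper separately reports natural antisense genes bound by HSFA1b, and AT3G29644 was not looked up among those. Of the lists of the cytokinin two-component pathway (19 loci) and of nitrogen assimilation and asparagine (15 loci), neither holds a member. With 2 members among 33557 loci, nothing is read from this.

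HSFA1b itself (AT5G16820, named HSF3 in RefSeq) ranged from 3.10 to 7.31 FPKM in the WT columns and from 330 to 624 FPKM in those of the 35S line, in the direction that the titles give. The leaf mesophyll markers RBCS1A, CAB2 and RCA summed to between 30906 and 40879 FPKM in WT columns and to between 8212 and 10057 in 5 of the 6 columns of the 35S line, but to 30560 in 1 NS column. In that column LYK4 was at 1.54 and AT3G29644 at 0.930 FPKM, within the other columns of the line, and without it the ratio to WT NS was 0.402 and 0.179. Of the NS libraries of the line, 1 carries the submission number of the WT libraries. Whether it is this column is not stated, so for the mesophyll markers genotype and submission cannot be told apart. Flower markers summed to at most 0.568 and seed markers to at most 0.245 FPKM. The 5 root markers, of which 1 was tested and 0 are at 0 throughout, summed to between 14.1 and 16.2 FPKM in WT NS, 9.30 and 16.4 in WT HS, 39.9 and 41.8 in 35S:HSFA1b NS and 18.8 and 32.0 in 35S:HSFA1b HS columns. Nearly all of this sum was PYK10, the tested one, a glycosyl hydrolase gene with means of 14.9 FPKM in WT NS and 40.5 in 35S:HSFA1b NS plants. MYB66 and CASP1 had lower NS means in the line (0.277 against 0.135 and 0.152 against 0.0863 FPKM), and EIR1 and EXPA7 stood near 0. Their part in the levels of LYK4 and AT3G29644, and that of the mesophyll markers, was not tested.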

How the data were processed

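The authors aligned the paired-end reads to TAIR10 transcripts (GSNAP) and estimated levels (Cufflinks, Cuffdiff, geometric normalization of libraries). Tool versions are not given in the sources used here. The deposited values are FPKM, 1 for each locus in each of 12 columns, whose names give genotype, treatment and a digit (0 to 2). All columns were used. The table holds no counts, so depth and counting error are unknown and the spread between columns is the measure of precision. The digits were not matched to the replicates 1 to 3 of the labels, so columns were assigned to groups only.

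The members and lists were chosen with earlier results of these data known. The text names the genes that met the criteria, the 3 nearest outside, the genes of the symbol LYK, the fixed lists and HSFA1b; other LysM genes and neighbours were named after their values were seen. limma 3.58.1 (R 4.3.3) was fitted to log2(FPKM + 0.01) of all 12 columns as 4 group means with an intensity trend, two-sided, for 17720 genes whose mean reached 1 FPKM, with Benjamini-Hochberg adjustment and a threshold of 0.05. A fold change on this scale understates that of low genes. The fit was tested on simulated data. Alternatives covered the criteria, pseudocount, filter, normalization, columns in the fit, trend, replicate block and each column left out.

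Of 33557 loci, 32810 matched the RefSeq annotation of TAIR10.1, which gave coordinates, names and sequences. Copies were searched with BLAST+ 2.17.0. Python 3.11.15, numpy 2.4.6, pandas 2.3.3 and matplotlib 3.10.9 were used.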

Additional observations from a re-analysis of the deposited data

Results flagged for a closer look

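The log2 change of the HSFA1b level under heat was 0.83 in WT and -0.52 in the 35S line. The difference of -1.35 passed the test (SE 0.24, limma adjusted p = 0.00486). In the line this level joins RNA of the gene itself and of the transgene, which FPKM of the locus do not separate. Its columns read 330 to 624 FPKM in the line against 3.10 to 7.31 in WT. The difference is thus not one of the gene's own heat response alone. Without the NS column at 624 FPKM the difference was -1.18 (limma adjusted p = 0.0102). BLH4, the homeobox gene near LYK4, was lower under heat in both genotypes, with a log2 change of -0.45 in WT (limma adjusted p = 0.0141) and -1.27 in the 35S line (limma adjusted p = 3.07e-05), a difference of -0.82 (SE 0.18, limma adjusted p = 0.017). PMAT2, the acyltransferase gene near AT3G29644, had a log2 change of -1.40 in WT and -0.39 in the 35S line, a difference of 1.01 (SE 0.19, limma adjusted p = 0.00816). BHLH100, a transcription factor gene that met the criteria without 1 WT column, had a log2 change of 0.15 in WT and -2.14 in the 35S line, a difference of -2.29. The criteria limit the WT heat ratio and the level in the 35S line, so the WT side of this difference was restricted by the choice. A test of it cannot decide whether the heat response of BHLH100 differs between genotypes. It is given as a value only. The differences of HSFA1b, BLH4 and PMAT2 each passed the test under all 19 alternatives run for it. These genes and BHLH100 were listed because their difference passed, so that they passed is no result about them. Of all 17720 tested genes, 5302 had an unadjusted limma p under 0.05 for this difference. The share called after adjustment is not given here. Groups of 3 columns are too small to look for a column far from the others.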

How the results depend on the processing

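LYK4 and AT3G29644 met the criteria in quantile-normalized columns, with a narrower window for the WT heat ratio, and without each column in turn. The number of genes was 0 at a ceiling of 0.5 and 10 at 0.8, 3 with a WT mean of at least 1 FPKM and no upper limit (LHB1B1 added), and 2 to 3 without 1 column, where BHLH100, PUP1, CYP706A1 or GolS3 joined. In the heat comparison within the 35S line the number higher was 2 after quantile normalization, through LYK4 (log2 0.55), whose other alternatives gave an adjusted p of 0.0674 or more. LYK4 was not tested with a filter of 3 FPKM. The number lower was 0 in all 20 alternatives. Without 1 column the change ranged from 0.89 to 1.35 for AT3G29644 and from 0.23 to 0.44 for LYK4. With the column digit as a replicate block, AT3G29644 had a limma adjusted p of 0.013 and LYK4 of 0.166, and 3658 genes were higher and 3183 lower against 4011 and 3489 without it. Columns of the same digit showed little shared deviation (r from -0.385 to 0.181, over 0.1 in 1 of 18 pairs). Columns of different digits were not compared, so this does not settle whether the digits pair the columns. Levels of 1 to 2 FPKM, with no counts behind them, limit the precision in the 35S line.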

Other observations

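In WT plants 4 LysM genes shared the highest NS column and the order of the HS columns, while their other NS columns differed in order. The first NS column (digit 0) was the highest of the WT NS columns for LYK4 (4.40 FPKM), LYK5 (13.0), CERK1 (19.9) and LYM2 (63.6). The WT HS columns with the digits 0, 1 and 2 read 3.35, 3.74 and 4.11 FPKM for LYK4, 9.51, 20.5 and 49.2 for LYK5, 14.7, 23.3 and 25.1 for CERK1 and 33.1, 74.3 and 94.7 for LYM2. The order of LYK4 was that of the others, over a far narrower range. LYK3, LYM1 and LYM3 had the reverse order in WT HS plants, with 3.96, 3.09 and 2.55 FPKM, 19.0, 16.3 and 14.7 FPKM, and 8.76, 7.69 and 6.27 FPKM. Both orders were also seen outside the LysM genes, so they are not particular to them. GSR 1, of the nitrogen assimilation list, had its highest WT NS column at digit 0 (69.8 FPKM) and WT HS columns of 71.3, 111.5 and 193.1 FPKM. HK2, of the cytokinin list, had WT HS columns of 5.03, 3.81 and 2.96 FPKM. This likeness was seen in the data and not tested, and the digits give the columns no order.

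TET8, near LYK4, varied in the same WT columns, with 260.5 ± 243 FPKM (n = 3) in WT HS and 31.3 ± 12.2 in WT NS plants. In the 35S line it read 36.4 ± 9.63 FPKM in HS plants.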
